A study of Drosophila melanogaster with 4 samples.

Results

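Peaks of the transcription factor Paired (Prd) that stood alone on the assembled chromosome arms of Drosophila melanogaster were described, 516 of the 1348 peaks deposited for the series. They were selected on measured values, the positions of the peaks. A peak was taken when it lay on 2L, 2R, 3L, 3R, X or 4 and its middle was 10000 bp or more from the middle of every other peak. The 6 arms held 777 peaks, so 66.4% of them stood alone (95% Clopper-Pearson interval 63.0% to 69.7%), and 261 had a neighbour under 10 kb away. These 261 serve below as the comparison and are named neighboured peaks.

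Binding was measured by chromatin immunoprecipitation and sequencing (ChIP-seq), with 2 Prd ChIP libraries and 2 libraries of input DNA. Whole embryos of mixed age, 0 to 12 h, were used for all 4 libraries. They came from the strain Y cn bw sp, whose labels list the alleles y[1] and oc[R3.2], then Gr22b[1] and Gr22d[1] with cn[1], CG33964[R4.2], bw[1] and sp[1], and lastly LysC[1] and lab[R4.2], with MstProx[1] as well as GstD5[1] and Rh6[1]. ChIP used the rabbit polyclonal antibody anti-Prd RF12, affinity purified, whose antigen is given as residues 355 to 552 joined to residues 572 to 613 of Prd, without the repeat for which paired repeats were named.

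Prd is a pair-rule protein of the early embryo. It holds 2 DNA-binding domains, a paired domain and a homeodomain, and is made in stripes along the segmenting embryo. There it acts on segment polarity genes such as engrailed, wingless and gooseberry and on other pair-rule genes. A ChIP-seq peak in whole embryos averages over all cells and ages collected, so a strong signal in few cells and a weak one in many cannot be told apart.

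The list is 1 table for the whole series, with a first base, a last base and 1 score per peak on FlyBase release 5. It has no value per library, so no spread between replicates could be computed and the depth is unknown. Every value below describes this list, and intervals cover counting error only. Intervals that involve neighboured peaks count each peak as separate, although these peaks come in groups, so they are too narrow. No test was made, since score and width come from the same ChIP and input comparison as the positions that chose the peaks. Gene models and sequence of release 5 were not used here, so peaks are given by position and carry no gene name.

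The score could be put on a scale of reads. For most peaks it equalled, within 0.01, minus log10 of the probability that a Poisson count with 1 common mean reaches a whole number of reads. The mean that fitted most scores of the whole list was 56.193 reads. Of the peaks standing alone, 459 or 89.0% had such a score, against 101 or 38.7% of the neighboured peaks. The fitted steps are 0.405 apart at a score of 20.76. For these peaks an inferred number of reads and its fold over the common mean are given, neither of which was observed directly. With the convention of a count above a whole number, each number of reads would be lower by 1.

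The highest isolated peaks were spread over all 5 large arms. The highest lay on 2L from 12520197 to 12520749 with a score of 138.69, an inferred 333 reads or 5.93-fold over the common mean, and its nearest peak was 38.9 kb away. Next came 3L from 505710 to 506369 with a score of 133.32 and 5.80-fold, and 3R from 12086145 to 12086917 with 132.55 and 5.78-fold. Their nearest peaks lay 64.1 and 55.2 kb away. These 3 sites therefore reached almost 6-fold with no other peak closer than 38.9 kb.

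The others of the 10 highest isolated peaks had scores between 94.77 and 118.3 and folds between 4.86 and 5.45. On 2L they ran from 8888679 to 8889230 with a score of 118.3, and from 14588855 to 14589247 with 94.77. The peak on 3L from 14104523 to 14104979 scored 110.28. On X 3 peaks belonged to the 10, from 17645605 to 17646094 with a score of 106.69, from 17425953 to 17426573 with 105.98, and from 423827 to 424354 with 102.43. The highest isolated peak of 2R, from 4138945 to 4139411, scored 103.14. Their distances to the nearest peak ran from 14.6 kb, for the first of those on X, to 188 kb, for the second. Within these 10, high score thus occurred at short and at long distances.

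At the low end, the isolated peak with the smallest score lay on 2R from 5070640 to 5070840, at 6.81 and an inferred 99 reads or 1.76-fold. It was followed by 3L from 606978 to 607178 and 3R from 15936660 to 15936965, both at 7.32 and 1.80-fold. The next were 2R from 21140511 to 21140796 at 7.58, which was also the last peak of its arm, and 2L from 20409342 to 20409693 at 7.69, whose score was off the ladder. The full range of folds among the 459 isolated peaks with an inferred count was therefore 1.76 to 5.93, with a median of 2.56 and quartiles of 2.22 and 3.13.

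With scores on and off the ladder pooled, isolated peaks scored higher than neighboured peaks over most of the range but not at its top. Their median score was 20.76 with quartiles of 13.68 and 35.11, against 13.68 with quartiles of 10.75 and 18.79 for neighboured peaks. The ladder held 89.0% of the isolated and 38.7% of the neighboured peaks, and the gap was not the same on and off it. On the ladder the median scores were 21.98 for isolated and 17.26 for neighboured peaks. The median folds there were 2.56 and 2.35, with upper quartiles of 3.13 and 3.08. Off the ladder the median scores were 11.97 for isolated and 12.2 for neighboured peaks. A score above 50 was held by 69 isolated peaks, or 13.4%, and by 17 neighboured peaks, or 6.51%. A score under 10 was held by 41 isolated peaks, or 7.95%, and by 54 neighboured peaks, or 20.7%. The highest score of an isolated peak was 138.69, below the 166.55 of the highest neighboured peak.

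The share of arm peaks that stood alone changed with score. It was 43.2% of the 95 arm peaks under a score of 10 (95% interval 33.0% to 53.7%) and 53.9% of the 217 from 10 to 15. It was 78.4% of the 125 from 20 to 30 and 87.0% of the 115 from 30 to 50 (79.4% to 92.5%). Above 100 it was 9 of 14 peaks, or 64.3%, with a wide interval of 35.1% to 87.2%. Of the 135 highest peaks of the whole list, 109 stood alone on the arms, 24 were neighboured on the arms and 2 lay on other sequences. Of the 135 lowest, 22 stood alone, 31 were neighboured on the arms and 82 lay on other sequences. Among arm peaks only, the share standing alone was 82.0% of the highest class and 41.5% of the lowest.

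**Figure D1:**
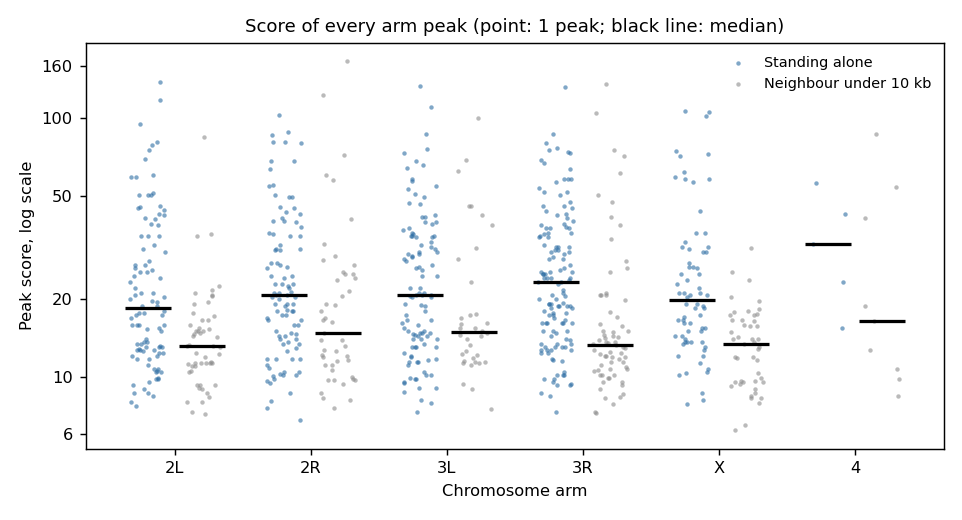
Score of every arm peak on a log scale, by chromosome arm, with peaks standing alone left (blue) and peaks with a neighbour under 10 kb right (grey); each point is 1 peak and the black line is the median. The blue medians lie between 18.4 on 2L and 32.7 on chromosome 4, and the grey ones between 13.1 and 16.4.

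Median scores of isolated peaks were alike on the large arms. They were 18.4 on 2L, 19.8 on X, 20.76 on both 2R and 3L, and 23.23 on 3R, and the quartiles overlapped throughout, from 12.67 to 15.07 below and from 31.0 to 36.1 above. For neighboured peaks the medians were 13.11 on 2L, 13.42 on X, 14.78 on 2R, 14.9 on 3L and 13.25 on 3R. On each of these 5 arms the median of the isolated peaks was the higher one, with scores on and off the ladder pooled. The share of scores on the Poisson ladder differed between arms mainly for neighboured peaks. Of the isolated peaks on X, 66 of 70 were on it, against 5 of the 47 neighboured peaks there, while on 3L the numbers were 91 of 109 and 19 of 36.

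Isolated peaks had a median width close to that of neighboured peaks, but a smaller share of them was wide. Widths over 600 bp were held by 36 isolated peaks, or 6.98%, and by 33 neighboured peaks, or 12.6%. The median isolated peak spanned 328.5 bp, the middle of the distribution ran between 259 and 432 bp (quartiles), and none exceeded 976 bp. Neighboured peaks had a median of 319 bp, quartiles at 249 and 446 bp, and reached 1933 bp. All 8 arm peaks of 1000 bp or more had a close neighbour. The smallest width among arm peaks, 201 bp, was held by 19 isolated and 9 neighboured peaks. By arm, the median width of isolated peaks was 286.5 bp on X, 310.5 bp on 2L, 323 bp on 3R, 335 bp on 3L and 356 bp on 2R. Together the isolated peaks covered 186 kb, and the neighboured peaks 102 kb.

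The widest isolated peaks were not those of highest score. They lay on 3L from 14182835 to 14183810 with 976 bp and a score of 42.22, and on 3R from 3711341 to 3712292 with 952 bp and 36.1. Another lay on 3R from 3605605 to 3606541 with 937 bp and 45.95. The next were on 2R, from 20925800 to 20926694 with 895 bp and a score of 19.17, and from 20701311 to 20702188 with 878 bp and a score of only 11.69. Over all 516 isolated peaks score and width went together, with a Spearman coefficient of 0.68 and a Pearson coefficient of 0.59. Both values come from 1 call of the same reads, so this is a property of the list. The median score was 12.67 for the 107 isolated peaks of 200 to 249 bp, 25.38 for the 145 of 300 to 399 bp, and 43.8 for the 76 of 500 bp or more.

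**Figure D2:**
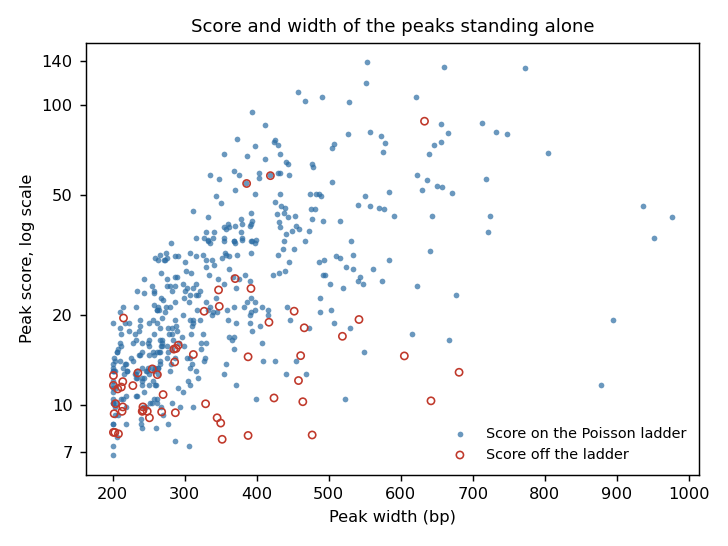
Score (log scale) against width in bp for the 516 peaks standing alone, each point 1 peak; filled blue points have a score on the Poisson ladder and open red circles one off it. Narrow peaks have low scores, while wide peaks span almost the whole range of scores, and the 57 red circles lie mostly at scores under 20.

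The 57 isolated peaks off the ladder differed in place and score from the rest. Their median score was 11.97, against 21.98 for the 459 on the ladder, and their median width 291 bp, against 330 bp. They made up 16.5% of the isolated peaks on 3L, 14.1% on 2R, 13% on 2L, 6.02% on 3R and 5.71% on X, and none of the 5 on chromosome 4. Of the 57, 23 lay in the part of a large arm next to the centromere, 1 of 5 equal parts, where 102 of the isolated peaks were. What moved these scores off the common mean was not tested.

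Isolated peaks were found on every arm, and X had the fewest per Mb. The lengths used are the highest peak ends, so densities are upper estimates. There were 133 isolated peaks on 3R or 4.79 per Mb (95% Poisson interval 4.01 to 5.68), 99 on 2R or 4.68 (3.81 to 5.70), 109 on 3L or 4.46 (3.66 to 5.38) and 100 on 2L or 4.35 (3.54 to 5.29). On X there were 70 or 3.17 per Mb (2.47 to 4.00), so that X held 13.6% of the isolated peaks (10.7% to 16.8%) and 18.5% of the length. The intervals of the 4 autosomal arms overlap one another, and that of X overlaps those of 2L, 3L and 2R and ends just below that of 3R.

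The share of an arm's peaks that stood alone ran from 75.2% on 3L (95% interval 67.3% to 82.0%) over 67.8% on 2R, 65.8% on 3R and 65.4% on 2L to 59.8% on X (50.4% to 68.8%). On chromosome 4 it was 5 of 14, or 35.7% (12.8% to 64.9%). These 5 were at 507266, 828385, 1000341, 1133452 and 1223513, with scores of 23.23, 32.69, 56.02, 42.75 and 15.43. The highest of them, from 1000341 to 1000977, was 637 bp wide and 133 kb from the nearest peak. No isolated peak lay between the centromere end and 507266, whereas the 9 neighboured peaks lay on both sides of that position.

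**Figure D3:**
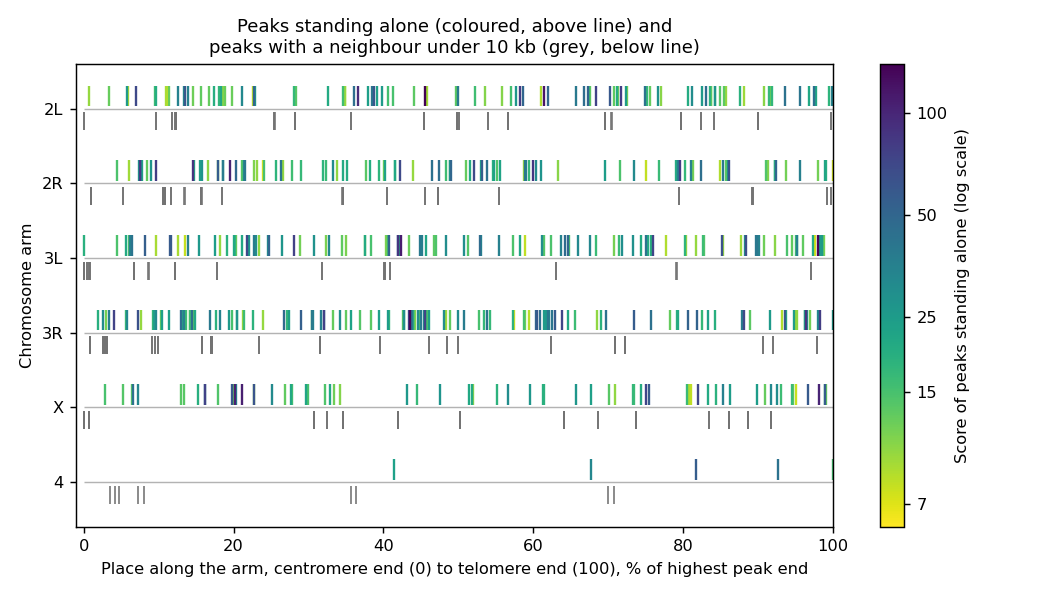
Place of every arm peak along the 6 arms, with the centromere end at 0 and the telomere end at 100, in percent of the highest peak end; coloured ticks above each line are peaks standing alone, coloured by score on a log scale, and grey ticks below are peaks with a neighbour under 10 kb. Coloured ticks run along each arm with breaks, and grey ticks crowd at the centromere end of 3L and 3R.

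Pooled over the 5 large arms, the density of isolated peaks varied less along the arms than that of neighboured peaks, which were densest next to the centromere. Each arm was cut into 5 parts of equal length, from the centromere outward. Isolated peaks numbered 102, 100, 105, 85 and 119 in these 5 parts, or 4.31, 4.22, 4.43, 3.59 and 5.02 per Mb, with overlapping 95% intervals. Neighboured peaks numbered 105, 30, 47, 31 and 39, or 4.43, 1.27, 1.98, 1.31 and 1.65 per Mb. The share standing alone was thus 49.3% next to the centromere (42.3% to 56.3%) and between 69.1% and 76.9% in the other 4 parts. The high number of neighboured peaks next to the centromere came from 3R with 41, 2R with 23 and 3L with 22, each the most of any part of its arm. On 2L most neighboured peaks, 17, lay in the middle part, and on X, 14, in the outermost, against 11 and 8 next to the centromere. Median scores of isolated peaks in the 5 parts were 20.3, 20.76, 20.76, 24.51 and 18.79.

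**Figure D4:**
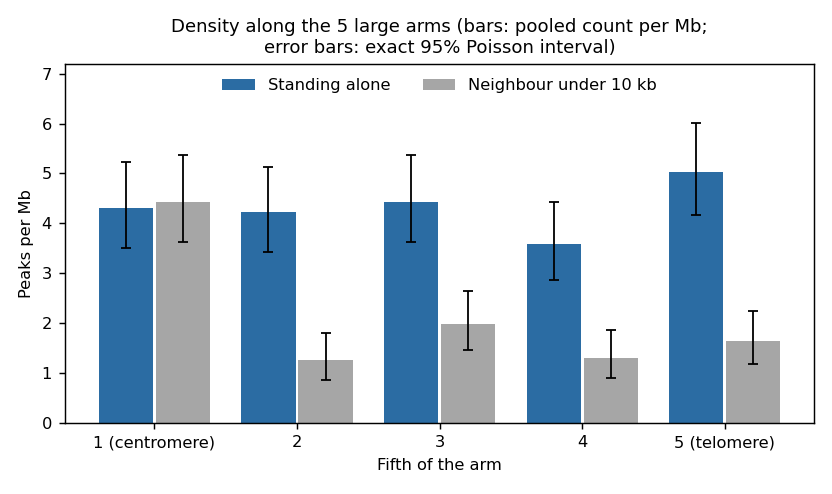
Peaks per Mb in 5 equal parts of the 5 large arms, from the centromere end to the telomere end, with peaks standing alone left (blue) and peaks with a neighbour under 10 kb right (grey); bars are pooled counts over length and error bars exact 95% Poisson intervals. Blue bars stay between 3.59 and 5.02, and the grey bar is 4.43 in the part next to the centromere and 1.27 to 1.98 in the others. The grey error bars count peaks of the same run as separate and are too narrow.

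The arms gave different numbers. Next to the centromere 17 of 39 peaks stood alone on 3L, 30 of 71 on 3R and 19 of 42 on 2R, against 28 of 30, 25 of 31 and 20 of 28 in the outermost part. On 2L the numbers were 23 of 34 next to the centromere and 25 of 34 outermost, and on X 13 of 21 and 21 of 35. In the 2 Mb nearest the centromere alone, 32 of 83 peaks stood alone over the 5 large arms, or 38.6%, against 479 of 680 on the rest, or 70.4%. Isolated peaks had a density of 3.2 per Mb in this window and 4.42 on the rest. Their density was the lower one in the window on each arm, but the window held only 5 to 8 isolated peaks per arm. The densities were 2.5 against 4.52 on 2L, 3 against 4.59 on 3L and 4 against 4.85 on 3R. On 2R they were 4 against 4.75, and on X 2.5 against 3.23. By arm, the shares in this window and on the rest were 27.6% and 72.3% on 3R, 28.6% and 83.1% on 3L, 38.5% and 62.5% on X, 61.5% and 68.4% on 2R, and 71.4% and 65.1% on 2L. The window held only 7 to 29 peaks per arm.

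In bins of 1 Mb the numbers of isolated and neighboured peaks did not go together. The 118 full bins of the 6 arms held 4.30 ± 2.33 isolated peaks (mean ± SD over bins). Only 1 bin held none, X from 13000001 to 14000000, 107 held 1 to 7, and 10 held 8 or more. Neighboured peaks were missing from 62 of the 118 bins. Over the bins the Spearman coefficient of the 2 counts was -0.02. This coefficient is a description, as all bins share the same libraries.

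The bin richest in isolated peaks was 3R from 12000001 to 13000000, with 15. Their scores ran from 10.44 over a median of 24.08 to 132.55, and their distances to the nearest peak from 12.0 over 31.6 to 55.2 kb. All 15 scores were on the ladder. The strongest began at 12086145, with a score of 132.55, at 12624158, with 75.52, and at 12031124, with 67.37. The rule keeps isolated peaks 10000 bp or more apart, so these 15 could not have formed a tight group. The bin held only 2 neighboured peaks.

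Among the 10 bins with 8 or more isolated peaks, the bin of X from 17000001 to 18000000 had the highest median score, 45.6 over 8 isolated peaks, and no neighboured peak. Besides the peaks at 17425953 and 17645605, already named, it held 17069816 to 17070293 with a score of 61.9 and 17714310 to 17714712 with 59.53. The others, at 17092083, 17614185, 17631096 and 17688333, scored 10.33, 31.74, 22.82 and 11.32. Next by median score among these 10 was 3R from 17000001 to 18000000, at 35.11 over 9 peaks, and lowest was 2L from 3000001 to 4000000, at 13.68 over 9. These bins were picked for description after their values were seen.

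Distances to the nearest peak spread widely above the limit. Their median was 65.7 kb, with quartiles of 30.03 and 144 kb and a maximum of 637 kb. They were 10 to 20 kb for 64 isolated peaks, 20 to 50 kb for 154, 50 to 100 kb for 112, 100 to 200 kb for 111 and more than 200 kb for 75. The median score in these bands was 23.4, 21.17, 21.0, 18.0 and 20.76. The Spearman coefficient of score with distance over the 516 peaks was -0.05, and within the 5 large arms it ran from -0.21 on 3L to 0.14 on 2L. Among isolated peaks pooled over the arms, no order of score by distance was seen. Over all 777 arm peaks the coefficient was 0.26, and over the 261 neighboured peaks it was 0.28. The highest score beyond 200 kb was 73.61, and the 9 isolated peaks above 100 lay in the nearer bands, a number too small to tell the bands apart.

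Peaks lay close to the limit on both sides, 18 isolated ones at 10 to 12 kb and 18 neighboured ones at 8 to 10 kb. The isolated peaks just inside it were 2 peaks of 2R at 12429352 and 12439342, 10065 bp apart with scores of 9.61 and 40.14. Next were 2 of 3R at 8453499 and 8463629, 10244 bp apart with scores of 12.34 and 38.1, and 2 of 2R at 11216626 and 11227050, 10372.5 bp apart with 22.82 and 54.87. Just outside were 2 peaks of 2L at 20787424 and 20797184, 9793.5 bp apart with scores of 15.79 and 22.4. Next came 2 of 2R at 20963638 and 20972945, 9323 bp apart with 27.14 and 57.76, and 2 of chromosome 4 at 855691 and 865192, 9045 bp apart with 86.64 and 8.4. Of the 261 neighboured peaks, 215 had a neighbour under 5 kb.

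The most remote isolated peak was on 3R from 21019562 to 21019999, with 637 kb free on one side and 694 kb on the other between middles. Its score was 43.8, or 3.38-fold. The next was on X from 11588924 to 11589190, with 593 and 689 kb and a score of 27.59. The third was on 2L from 22234988 to 22235188, with 552 and 592 kb, the smallest width and a score of 12.55. These 3 were the only isolated peaks with more than 500 kb on both sides. They were followed by X from 21476604 to 21476868 at 478 kb with a score of 15.07, and 2R from 13380672 to 13380883 at 477 kb with 10.44. In all, 50 isolated peaks had more than 250 kb free on both sides, with a median score of 22.4 and a median width of 324 bp.

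Isolated peaks had mostly isolated peaks beside them, at about the share they made up of all separate places. Counting each run of neighboured peaks as 1 place, the arms held 609 places, of which 516 or 84.7% were isolated peaks. For 440 of the 516, or 85.3%, the nearest peak also stood alone. Of the 509 with a peak on either side, 380 had isolated peaks on both sides, 114 on 1 side and 15 on neither. The 439 consecutive isolated pairs, 72.8% of the 603 gaps between places, were spaced by 138 kb at the median, and the Spearman coefficient of their scores was 0.03. The longest unbroken series held 25 isolated peaks over 5.99 Mb of X from 15488580 to 21476868. Next was a series of 22 over 5.01 Mb of 3L from 9196207 to 14206010. The densest of the 10 longest series was on 3R, with 20 isolated peaks in 1.52 Mb from 11263767 to 12783814.

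Most of the arm length lay in long stretches without any peak. Counted edge to edge between consecutive peaks of either kind, 176 stretches were 250 kb or longer and made up 78.3 Mb, or 65.4% of the length. There were 51 of 500 kb or longer, with 35.4 Mb or 29.5%, and 4 of 1 Mb or longer. Isolated peaks bounded 129 of the 176 on both sides, or 73.3%, close to the 72.8% of all gaps between separate places. X had the largest share in stretches of 250 kb or more, 76.5%, followed by 3R with 65.6%, 2L with 64.9%, 3L with 63.9%, 2R with 56.6% and chromosome 4 with 53.9%.

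The longest stretch was on X from 12830184 to 14446468, 1616 kb, and was bounded by neighboured peaks on both sides. Counting isolated peaks alone, X had none over 1981 kb from 12553296 to 14534494, an interval with 9 neighboured peaks. Among stretches without any peak, the next were 2R from 13380884 to 14695067 with 1314 kb, X from 19221068 to 20503050 with 1282 kb and X from 4305772 to 5418618 with 1113 kb. X thus held 3 of the 4 stretches of 1 Mb or more, and these 3 made up 18.1% of its length. The one on 2R began at 1 of the 5 most remote isolated peaks, which scored 10.44, and ended at an isolated peak of score 24.51.

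On the other arms the longest stretches without any peak stayed under 1 Mb. They were 3R from 23373528 to 24370408 with 997 kb and 2L from 15499068 to 16486244 with 987 kb, each between isolated peaks. On 3L the longest, from 23371206 to 24238525 with 867 kb, lay at the centromere end of the arm. The others of the 10 longest were on 2L from 11565455 to 12455130 with 890 kb and from 7891065 to 8740803 with 850 kb, and on 3R from 18182394 to 19026946 with 845 kb. On chromosome 4 the longest was 338 kb, from 98547 to 437005.

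**Figure D5:**
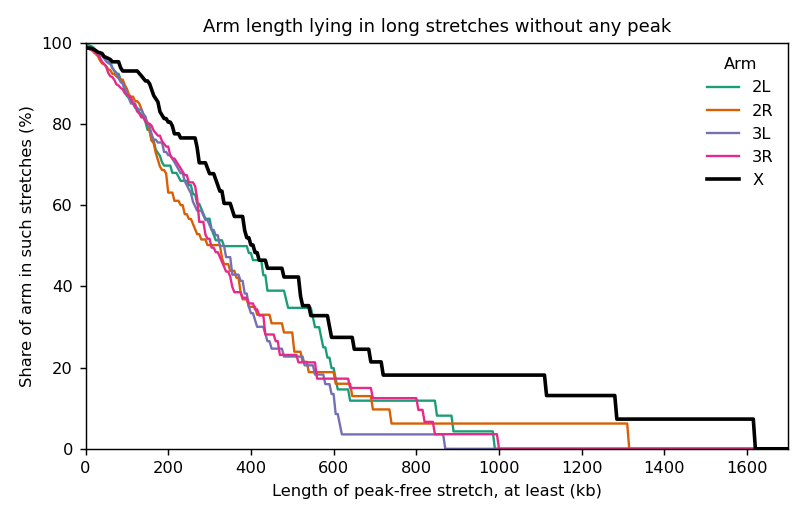
Share of the length of each large arm, in percent of the highest peak end, that lies in stretches without any peak of at least the length on the horizontal axis, in kb; each line is 1 arm. At 250 kb the X line stands at 76.5% and the other 4 lines between 56.6% and 65.6%, and beyond 1000 kb only X and 2R are above 0.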

How the data were processed

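Prd ChIP (2 libraries) and input DNA (2 libraries) share 1 deposited list of 1348 peaks. BWA, MACS2, the build BDGP5 and CASAVA in versions 1.7.0.2 and 1.7.0.3 are named, per the submitters' processing notes. Per the file headers, the list is GFF version 3 on FlyBase release 5. The score of each peak is the authors' deposited value, while its quantity, the thresholds and any pooling of libraries are not given in these sources. First and last base are the authors' other deposited values. Everything else was computed with Python 3.11.15, pandas 2.3.3 and SciPy 1.17.1: middles, distances, widths, counts in 5 parts of each arm and in 1 Mb bins, peak-free stretches, and the Poisson ladder, whose mean was fitted over 20 to 150 in steps of 0.01 and then 0.001. Isolation and ladder code was tested on simulated data. Depth per library is unknown. The peaks, lists and ladder were chosen with earlier results of these data known. Named peaks are the 10 highest isolated peaks, the highest of each arm, the 5 widest, lowest and most remote, and 3 pairs on either side of the limit. Named stretches are the 10 longest and the longest of each arm. The gene table at hand is on another release and was not used. Planned analyses of annotation and sequence were not run.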

Additional observations from a re-analysis of the deposited data

How the results depend on the processing

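Of 34 alternative values, 24 moved by less than the 95% interval or, for counts, less than 1.5 times. The share of arm peaks standing alone, 66.4%, was 72.3% (562 peaks) with a limit of 5000 bp and 58.2% (452) with 20000 bp. It was 79.3% (545) after merging peaks under 1000 bp apart and 81.3% (399) among the upper 50% of scores. Of the arm peaks in the upper 50% by score, 76.0% already stood alone under the rule applied to the whole list. Median score stayed between 20.36 and 20.76, median width between 327.5 and 338 bp, and the share on X between 12.5% and 14.04%. Stretches of 250 kb or more numbered 167 in the upper 50% by score, 211 at 200 kb and 135 at 300 kb. Score and width had a Spearman coefficient of 0.68, which was 0.60 on 2R, 0.62 on 3L and 0.80 on 3R. For score and distance it was -0.05 over all isolated peaks, 0.14 on 2L, -0.20 on 2R and -0.21 on 3L. Facing edges, for score, width and X, and ladder scores alone were settings added once the data had been seen. No paired analysis was possible because values per library are not in the list used here, and leaving out a replicate needs them too. Signal under the authors' threshold is outside the list.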
